A study of Mus musculus with 6 samples.

Results

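Genes that carry only a provisional symbol, Gm and a number, were compared between muscle satellite cells lacking the DNA methyltransferase gene Dnmt1 and control cells. The members were chosen by symbol, position and mean value. They were the rows of the deposited table whose name is Gm followed by digits alone, that lie on 1 autosome, and whose mean over the 6 libraries reached 5 scaled read counts. Gm11127 and Gm7325 were set aside by the rule, and Gm11127 would otherwise have been a further gene called higher (log2 fold change 6.32, limma adjusted p = 0.00152). Of 23420 genes in the table, 54 met it. The table held 1197 rows with such a symbol, of which 998 lay on a single autosome, and 682 of those were at 0 in all 6 libraries and 262 were above 0 with a mean below 5.

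RNA was sequenced from 3 Dnmt1 KO and 3 control samples of mouse satellite cells, the Pax7-expressing stem cells of skeletal muscle. Per the labels, male C57BL/6 mice with floxed Dnmt1 and the Pax7-CreERT2 driver, which restricts a tamoxifen-dependent recombinase to cells that express Pax7, were 7 weeks old and given tamoxifen or vehicle for 5 consecutive days. The labels do not state which of these each sample received, or whether control mice carried the Cre. Xist, a gene of chromosome X, had 44.4, 145.5 and 27.1 scaled read counts in Dnmt1 KO replicates 1, 2 and 3. It was at 0 in every control library. The bearing of Xist on the sex given in the labels was not tested. Nothing in the labels says that libraries of a group are from different animals. Each p-value thus reflects the variation among these libraries, some of which may be technical. In bulk samples, fewer cells of a type and less RNA per cell cannot be told apart.

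A Gm symbol is given in mouse gene nomenclature to a predicted gene whose function has not been worked out, and it is replaced once a name is agreed. Such rows therefore mix long non-coding RNAs (lncRNAs), processed pseudogenes copied from the messenger RNA of other genes, clustered zinc finger genes, and ordinary protein-coding genes that were named later. DNMT1 copies CpG methylation onto the new DNA strand at replication, and its loss is known to release transcription from some methylated promoters, including those of transposable elements and germline genes.

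Among the 54 genes, 2 lncRNAs rose in Dnmt1 KO cells, beside 1.67% of all 12591 genes tested, and 0 fell, beside 0.0953% (limma, Benjamini-Hochberg adjusted p under 0.05). At an unadjusted p under 0.05, 6 were higher, beside 10.7% of all genes, and 1 was lower, beside 4.8%. Gm19757 was 88.2-fold higher and Gm10845 was 9.39-fold higher as ratios of group means, and both were highest in the same Dnmt1 KO library. Of the other 52 genes none passed the test, and 49 of them had log2 fold changes smaller than 1 in size. A stretch around the annotated start of Gm19757 was found again, with few differences, in the last exon of Gm10845, and the start window of Gm19757 and the matching stretch of Gm10845 are printed to show this likeness. The window is RefSeq's, on GRCm38.p6, at chr6:105492619-105492918 on the minus strand, and holds 250 bases before and 50 bases after the first base of the gene. The segment is from the GENCODE M21 transcript of Gm10845, at chr14:79860633-79860865 of GRCm38 on the minus strand. Capitals mark runs of 12 or more aligned bases that are identical in both.
Gm19757 start window: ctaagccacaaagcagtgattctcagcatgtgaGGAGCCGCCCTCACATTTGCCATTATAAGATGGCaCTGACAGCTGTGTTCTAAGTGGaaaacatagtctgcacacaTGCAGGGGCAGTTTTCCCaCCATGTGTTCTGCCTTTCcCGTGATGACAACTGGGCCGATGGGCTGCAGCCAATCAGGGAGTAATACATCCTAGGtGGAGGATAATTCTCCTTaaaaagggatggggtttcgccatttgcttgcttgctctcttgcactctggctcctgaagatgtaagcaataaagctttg
Gm10845 segment: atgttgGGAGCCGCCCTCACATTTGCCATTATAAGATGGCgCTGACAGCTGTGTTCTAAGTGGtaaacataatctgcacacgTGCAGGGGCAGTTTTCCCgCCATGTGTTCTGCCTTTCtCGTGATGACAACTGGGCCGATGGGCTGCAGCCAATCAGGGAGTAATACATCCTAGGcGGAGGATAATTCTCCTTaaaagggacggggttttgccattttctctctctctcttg

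Over bases 28 to 263 of the window, 219 of 233 aligned bases were identical to bases 3045 to 3277 of the Gm10845 transcript, an identity of 94.0%. The runs in capitals held 165 bases of each sequence. The window held 4 CpG dinucleotides and the Gm10845 segment 8.

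The 2 genes that rose were both spliced lncRNAs of 3 exons that overlap no exon of another listed gene. Gm19757 lies at chr6:105481266-105492668 on the minus strand, with 2946 bases of exon, and the nearest other gene of the table is Cntn4, 185077 bases away. Its values were 284, 907 and 229 scaled read counts in Dnmt1 KO replicates 1, 2 and 3, against 5.02, 7.62 and 3.46 in control replicates 1, 2 and 3. The groups did not overlap, and Dnmt1 KO replicate 2 stood above the other Dnmt1 KO libraries. The values came from 198, 904 and 186 reads in Dnmt1 KO libraries and from 5, 8 and 5 reads in control libraries. Means were 473 ± 377 in Dnmt1 KO and 5.36 ± 2.10 in control (SD, n = 3 each). The log2 fold change on the log2(value + 1) scale was 5.99 with a standard error of 0.47 and a 95% confidence interval of 4.95 to 7.04 (limma, Benjamini-Hochberg adjusted p = 0.00121). Without Dnmt1 KO replicate 2 it was 5.38 (limma adjusted p = 0.000668), and Gm19757 passed the test in all 16 alternative settings tried.

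Gm10845 lies at chr14:79860521-79869176 on the minus strand, with 3389 bases of exon, and its nearest listed neighbour, the protocadherin gene Pcdh8, is 89209 bases away and at 0 in the mean of both groups. Its values were 148, 451 and 124 scaled read counts in Dnmt1 KO replicates 1, 2 and 3, against 24.1, 23.8 and 29.0 in control replicates 1, 2 and 3. The groups did not overlap, and the controls lay within a narrow range while Dnmt1 KO replicate 2 was again the highest. Means were 241 ± 182 in Dnmt1 KO and 25.6 ± 2.95 in control (SD, n = 3 each), and the log2 fold change was 2.94 with a standard error of 0.41 (limma, adjusted p = 0.00921). Control replicates 1, 2 and 3 held 24, 25 and 42 reads of this gene, against 5, 8 and 5 of Gm19757. The call was lost without Dnmt1 KO replicate 1 (limma adjusted p = 0.0548) and by edgeR's quasi-likelihood test on whole reads of 4 libraries (adjusted p = 0.0653), with log2 fold changes of 3.16 and 2.34. Of its 50-base words, 20.3% also occur in the transcripts of 40 other genes, so part of its reads could have been divided between copies or discarded, depending on how the authors counted.

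Gm4262, a lncRNA of 3 exons at chr16:11008898-11015184 on the plus strand, had a larger log2 fold change than Gm10845 but a larger p. Its values were 11.5, 30.1 and 6.15 scaled read counts in Dnmt1 KO replicates 1, 2 and 3, against 0, 0 and 2.77 in control replicates 1, 2 and 3. Its groups did not overlap, Dnmt1 KO replicate 2 was again the highest, and the control level rested on 4 reads in replicate 3 alone. The log2 fold change was 3.17 with a standard error of 0.70, and it did not pass the test over all genes (limma adjusted p = 0.0546). Its mean reached 5 only through the Dnmt1 KO libraries, as did that of Gm13399, whereas 52 of the 54 genes had a mean of at least 5 in each group. In the authors' deposited table the q-values were 1.09e-23 for Gm19757, 1.63e-09 for Gm10845 and 0.000915 for Gm4262. These 3 were the members with a q under 0.05, 5.56% of the 54, beside 1.5% of all 23420 rows. All rows include genes at or near 0, which the threshold of 5 kept out of the members, so the 2 shares are not of like sets.

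**Figure D1:**
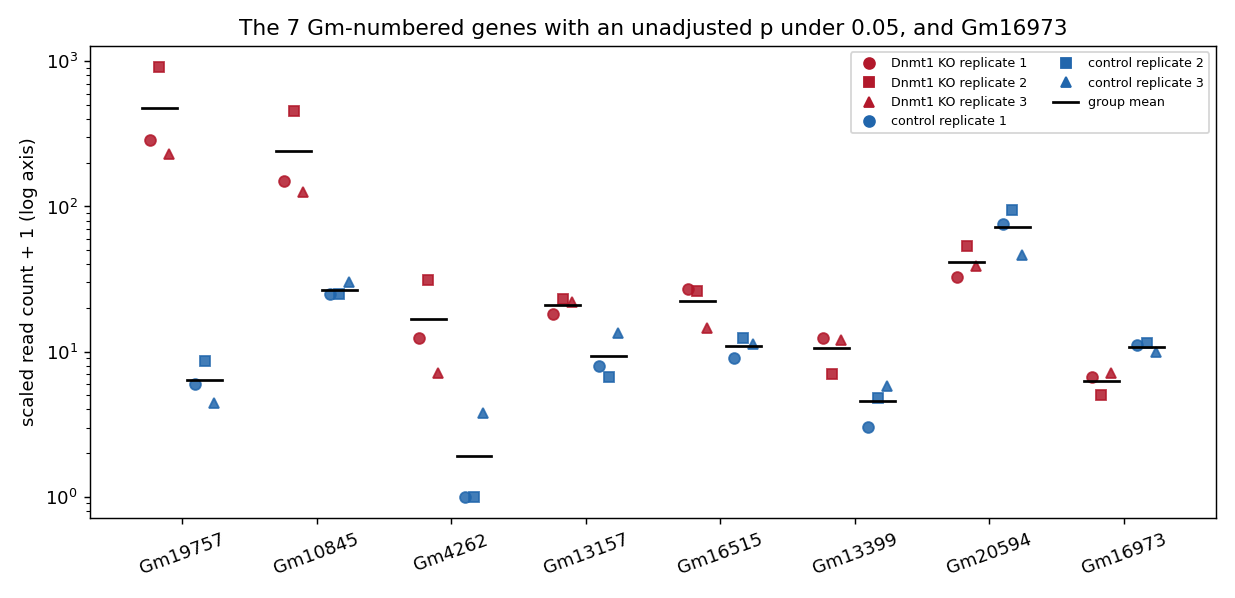
Scaled read count plus 1, on a log axis, of 8 Gm-numbered genes in each library, with Dnmt1 KO in red left of control in blue and a black bar at each group mean. Gm19757 and Gm10845 lie far above their controls in every Dnmt1 KO library, with replicate 2 (squares) highest for these genes and for Gm4262, while the other genes differ by far less.

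Apart from Gm19757 itself, Gm10845 and Gm4262 were the only members searched in which words of the Gm19757 start region were found. The match of Gm19757 was fixed in advance, since the words were cut from its own start window and first exon. Gm4262 was a member only through its Dnmt1 KO libraries. The region searched was chosen after the values had been seen, and it held the 300 bases of the start window and the first exon, 582 bases in all, cut into 563 overlapping words of 20 bases. Among 50 members with a GENCODE transcript, Gm19757 held 313 of these words, Gm10845 held 77 and Gm4262 held 34, and the other members held 0. The first exon of Gm19757, of 332 bases, matched bases 1081 to 1405 of Gm10845 on the same strand, with 271 of 298 aligned bases identical (90.9%). In Gm4262 the likeness was on the opposite strand, with the start window at bases 285 to 599 (237 of 277 bases identical, 85.6%) and the first exon at bases 223 to 332 (101 of 110 bases identical, 91.8%). All 4 matches lay in exon 3 of the transcript they fell in, beyond its annotated start. No repeat annotation or genome sequence was used, so copies outside transcripts and start windows were not analysed here.

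**Figure D2:**
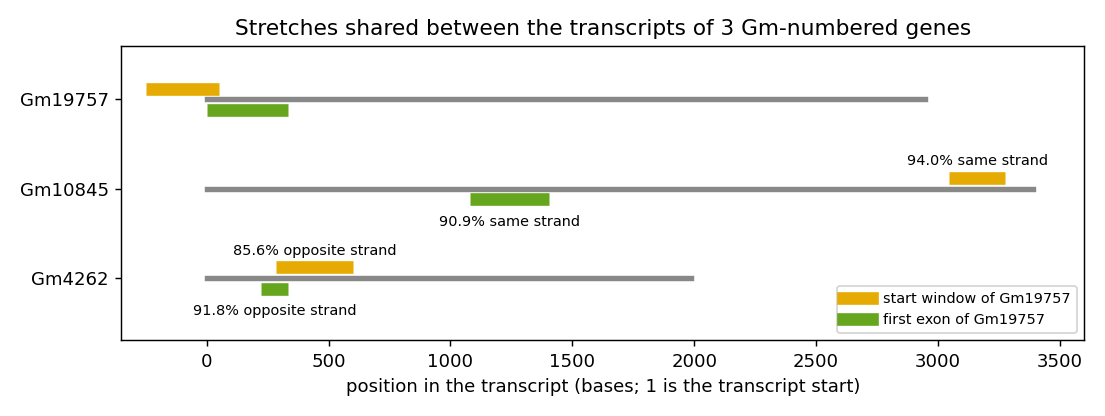
Positions, in bases from the transcript start, of the stretches in Gm10845 and Gm4262 that align with the start window of Gm19757 (yellow) or with its first exon (green), with percent identity and strand. Grey lines are the transcripts, and the Gm10845 matches are 94.0% and 90.9% identical on the same strand.

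The same words were looked for in the rest of the table. Of 21795 genes searched, 34 held at least 20 of the words, and 24 of the 31 that were not members could be tested. Among these 24, limma called 0, beside 1.67% of all genes higher. On whole reads of 4 libraries, edgeR and DESeq2 called 0 each, and limma in the other settings called at most 1. An unadjusted p under 0.05 was found by limma in 7, or 29.2%, all of them higher in Dnmt1 KO. Of all genes tested, 15.5% had such a p, with 10.7% higher and 4.8% lower. The median log2 fold change of the 24 genes was 0.17, from -1.08 to 2.79, with 14 above 0. At the upper end stood Cntn3, a contactin cell adhesion gene that was at 0 in all 3 controls (limma adjusted p = 0.0668). Sirt5, a mitochondrial deacylase gene that held 252 of the words, averaged 11.98 ± 3.53 scaled read counts in Dnmt1 KO and 6.14 ± 2.11 in control (SD, n = 3 each), with a log2 fold change of 0.87 (limma adjusted p = 0.339). Among 32851 RefSeq start windows, those of 45 other genes shared at least 1 word with the query, a lower bar than the 20 words asked above. Of these 45 genes, 39 carried Gm-numbered symbols and 7 were in the table. The share of Gm-numbered symbols over all start windows was not counted, so the 39 cannot be set against it.

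The start windows of members held about as many CpG dinucleotides as those of other genes. A window was found for 39 members, with a median of 9, from 0 to 50, against 8 in 25748 autosomal genes. A count of 4 or fewer was found in 35.9% of the members' windows and in 36% of all. Gm19757 and Gm4262 had 4 each.

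The 52 other members summed to nearly the same value in every library. Together they gave 1161, 1147 and 1218 scaled read counts in Dnmt1 KO replicates 1, 2 and 3, against 1298, 1294 and 1248 in control replicates 1, 2 and 3. Every Dnmt1 KO sum was below every control sum, by a small margin. The scaled totals of all genes had the same order, with 1.35154e+06 to 1.36891e+06 in Dnmt1 KO and 1.3692e+06 to 1.40763e+06 in control. The highest Dnmt1 KO total, 1.36891e+06, was close to the lowest control total, 1.3692e+06. Whether the order of the members' sums is related to that of the totals was not tested. Gm19757 and Gm10845 made up 27.1%, 54.2% and 22.5% of the summed value of all members in Dnmt1 KO libraries and 2.19%, 2.37% and 2.54% in control libraries. With them included, the members held 0.116%, 0.185% and 0.116% of the library in Dnmt1 KO and 0.0943%, 0.0968% and 0.0916% in control.

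**Figure D3:**
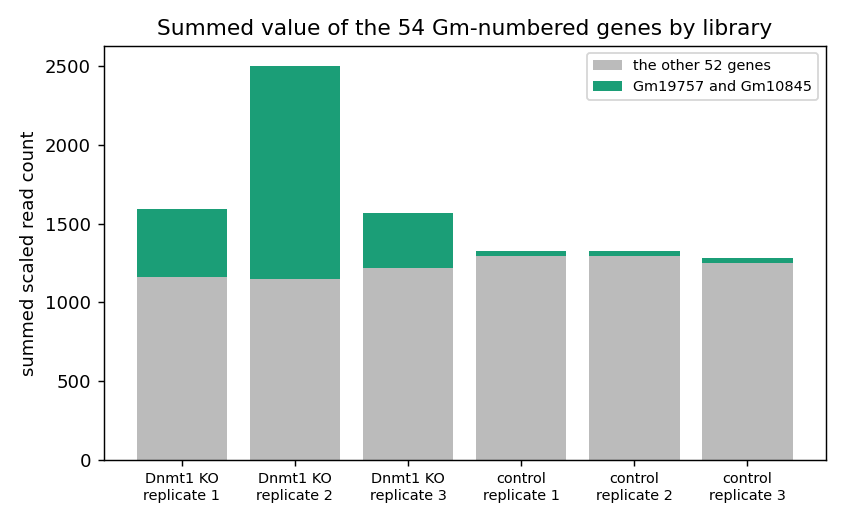
Summed scaled read count of the 54 Gm-numbered genes in each library, Dnmt1 KO left of control, split into Gm19757 with Gm10845 (green) and the other 52 genes (grey). The grey part lies between 1147 and 1298 in all 6 libraries, and the green part is largest in Dnmt1 KO replicate 2.

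All 54 members entered the test, and none was lost to the filter on low values. The 7 members with an unadjusted p under 0.05 compare with 15.5% of all genes. On the whole reads of 4 libraries, edgeR tested 43 members and called 1 higher and 0 lower, beside 0.053% and 0.0106% of 9441 genes. DESeq2 tested all 54 and called 2 higher and 0 lower, beside 0.278% and 0.00843% of 11867 genes. The groups did not overlap in 6 members higher in Dnmt1 KO and 2 lower, beside 13.4% and 7.81% of all genes. The limma calls higher were 3.7% of the members, and rest on 2 genes. Log2 fold changes were positive for 26 members and negative for 28, with a median of -0.04 beside 0.02 over all genes tested, and 49 were smaller than 1 in size. Autosomal genes with a mean of at least 5 and a Rik symbol, another kind of provisional name, gave 6 calls higher among 300, and the remaining 9693 gave 172 higher and 10 lower.

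The members had a median of 95.5 reads over the 6 libraries, from 33 to 1306. The median width of the 95% confidence interval of their log2 fold change was 1.82.

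**Figure D4:**
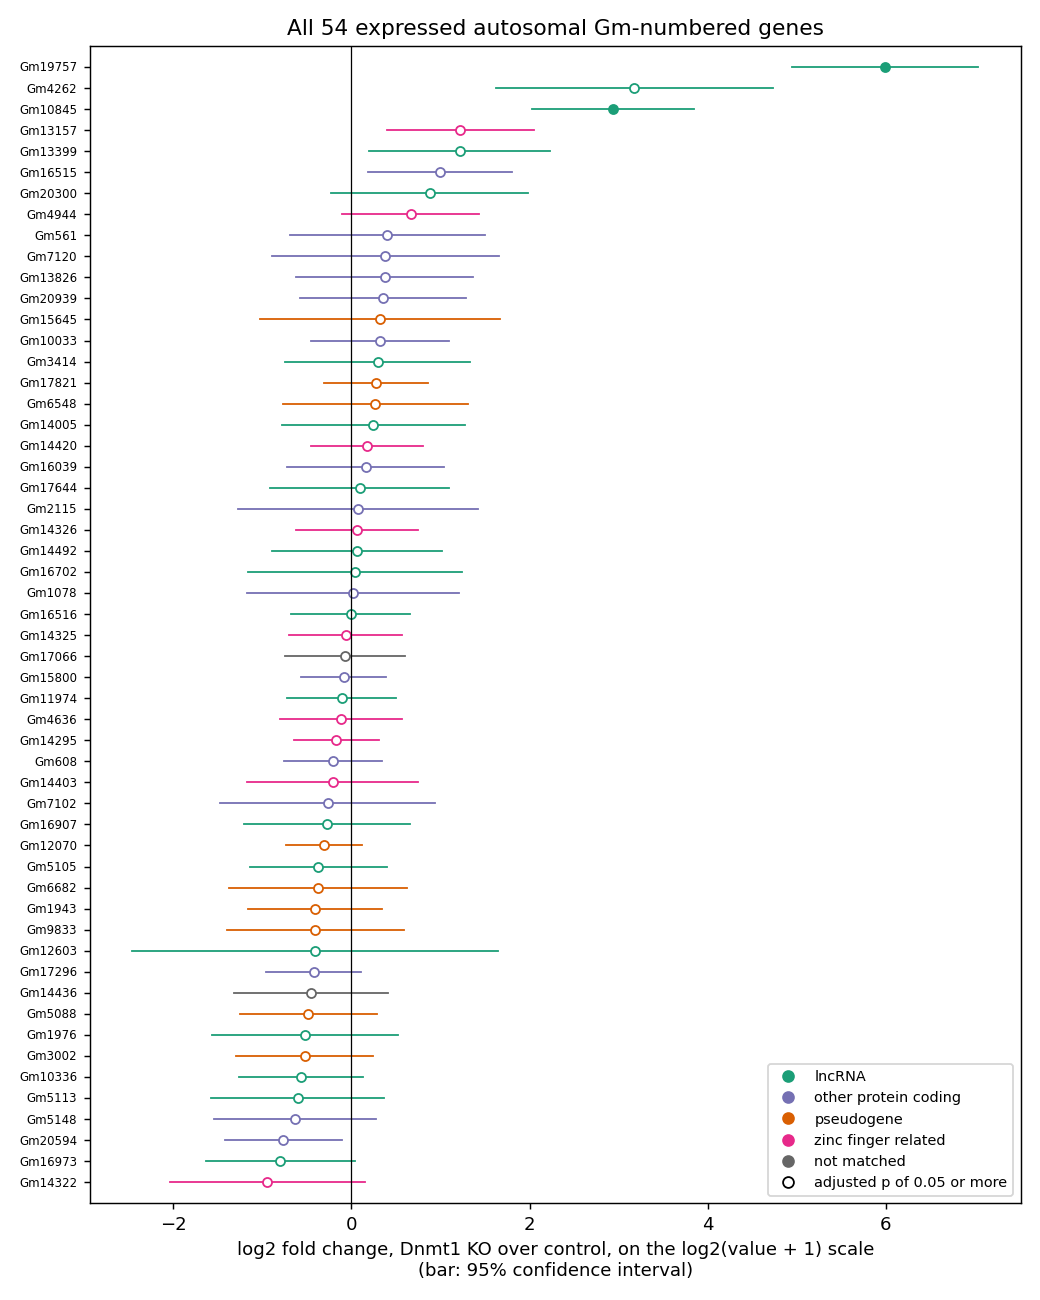
Log2 fold change, Dnmt1 KO over control, of all 54 Gm-numbered genes on the log2(value + 1) scale, with 95% confidence intervals, coloured by kind of gene. Filled points passed the test at an adjusted p of 0.05, and these are Gm19757 and Gm10845; open points did not.

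By kind, both calls fell among 19 lncRNAs. The other kinds were 15 protein-coding genes, 9 pseudogenes, 9 genes related to zinc finger proteins and 2 that matched no RefSeq entry, with 0 calls by limma, edgeR or DESeq2 and with an unadjusted p under 0.05 in 2, 0, 1 and 0 of them. Median log2 fold changes were 0.04 for lncRNAs, 0.08 for protein-coding genes, -0.37 for pseudogenes and -0.06 for zinc finger related genes. RefSeq now lists 19 members under another name. Those 19 had 0 calls by limma, edgeR or DESeq2, 3 with an unadjusted p under 0.05 and a median of 0.16.

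Besides Gm19757, Gm10845 and Gm4262, the lncRNAs whose groups did not overlap were Gm13399 and Gm16973, and neither passed the test. Gm13399 is listed in RefSeq as Dbhos, on the opposite strand from Dbh, the dopamine beta-hydroxylase gene, and lies 2804 bases from it. Its values were 11.5, 6.02 and 11.1 scaled read counts in Dnmt1 KO replicates 1, 2 and 3, against 2.01, 3.81 and 4.84 in control replicates 1, 2 and 3. The groups did not overlap, and the log2 fold change of 1.22 did not pass the test (limma adjusted p = 0.234). Dbh itself averaged 7.35 in Dnmt1 KO and 2.79 in control, with a log2 fold change of 1.27 (limma adjusted p = 0.425).

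Gm16973 shares 383 exon bases with Mphosph8, which encodes a subunit of the HUSH silencing complex and runs on the opposite strand. Its values were 5.73, 4.01 and 6.15 scaled read counts in Dnmt1 KO replicates 1, 2 and 3, against 10.03, 10.47 and 8.99 in control replicates 1, 2 and 3. All Dnmt1 KO libraries were below all controls, and the log2 fold change was -0.80 (limma adjusted p = 0.353). Mphosph8 averaged 102 in Dnmt1 KO and 84.3 in control (log2 fold change 0.27, limma adjusted p = 0.500). The kit kept strand, per the labels, but no source used here gives the strand setting of the counting, so reads of the pair may have been mixed.

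Gm20300, 1573 bases from Hint3, had a log2 fold change of 0.88 (limma adjusted p = 0.438). Gm10336 lies 52 bases from the methionine synthase gene Mtr on the same strand and had a log2 fold change of -0.56, beside -0.30 for Mtr, and neither passed the test. Gm5113, 195 bases from Zfp146, had -0.60, and Gm1976, which shares 80 exon bases with 2700099C18Rik on the opposite strand, had -0.52. Gm11974 is Snhg15, a host gene of a small nucleolar RNA, and averaged 34.2 ± 5.86 in Dnmt1 KO and 37.8 ± 11.7 in control (SD, n = 3 each). Gm14005 is Morrbid, a lncRNA known from short-lived myeloid cells, and averaged 11.8 ± 4.94 in Dnmt1 KO and 9.77 ± 4.59 in control (SD, n = 3 each). In both, the difference was smaller than the spread between replicates.

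Of the protein-coding members not classed as zinc finger related, Gm16515 differed most among those above their controls. It is Natd1, an N-acetyltransferase domain gene. Its values were 25.8, 25.1 and 13.5 scaled read counts in Dnmt1 KO replicates 1, 2 and 3, against 8.03, 11.4 and 10.4 in control replicates 1, 2 and 3. The groups did not overlap, and the log2 fold change of 1.00 did not pass the test (limma adjusted p = 0.221). The next listed gene on that strand, Gm16516 or Map2k3os, 7149 bases away, had a log2 fold change of -0.01.

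Gm20594, a single-exon gene of 334 bases, was the member below its controls with the smallest p. Its values were 31.5, 52.2 and 38.2 scaled read counts in Dnmt1 KO replicates 1, 2 and 3, against 74.2, 93.3 and 45.6 in control replicates 1, 2 and 3. The groups overlapped, and the log2 fold change was -0.76 (limma adjusted p = 0.249). Of its 50-base words, 4.0% also occur in the mitochondrial 16S ribosomal RNA, mt-Rnr2. Gm5148 had a log2 fold change of -0.64, Gm561 (Smim26, a small integral membrane protein gene) 0.40 and Gm7120 (Tmem267) 0.38, and none of these 3 passed.

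The longest protein-coding members not classed as zinc finger related showed little difference. Gm15800 is Hectd4, a HECT-domain gene of the ubiquitin ligase family with 76 listed exons, and averaged 93.1 ± 16.0 in Dnmt1 KO and 100.1 ± 25.5 in control (SD, n = 3 each). Gm608 is Usf3, of the upstream transcription factor family, and averaged 79.9 ± 6.54 in Dnmt1 KO and 96.2 ± 36.6 in control. Gm17296 is Tarbp1, an RNA methyltransferase-family gene, and averaged 41.7 ± 8.67 in Dnmt1 KO and 56.3 ± 11.2 in control. The log2 fold changes were -0.09, -0.20 and -0.42, and none passed (limma adjusted p = 0.878, 0.733 and 0.432).

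Zinc finger genes of the Krüppel-associated box class include many repressors of transposable elements. Gm13157, listed as Zfp984, was the zinc finger related member with the smallest p. Its values were 17.2, 22.1 and 20.9 scaled read counts in Dnmt1 KO replicates 1, 2 and 3, against 7.02, 5.71 and 12.4 in control replicates 1, 2 and 3. The groups did not overlap, and the log2 fold change was 1.22 with a standard error of 0.37 (limma adjusted p = 0.147). Of its 50-base words, 54.5% occur in transcripts of other genes. Gm4944, or Zfp994, had 30.1, 22.1 and 27.1 in Dnmt1 KO replicates 1, 2 and 3, against 11.03, 15.2 and 24.9 in control replicates 1, 2 and 3. Its groups overlapped, with a log2 fold change of 0.66 (limma adjusted p = 0.395).

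A cluster of 7 members lies on distal chromosome 2, between positions 175470060 and 177957289, and all but Gm14436 were classed as related to zinc finger proteins. Gm14436 matched no RefSeq entry and had no transcript to search, so its relation to them was not assessed. In this cluster limma, edgeR and DESeq2 called 0 genes, 0 had an unadjusted p under 0.05, and the median log2 fold change was -0.17, from -0.94 to 0.17. Gm14322 gave the lowest value. It had 5.73, 17.1 and 22.2 scaled read counts in Dnmt1 KO replicates 1, 2 and 3, against 35.1, 16.2 and 31.1 in control replicates 1, 2 and 3, and the groups overlapped (limma adjusted p = 0.397). Gm14295, the cluster member with the highest mean, averaged 40.5 ± 5.55 in Dnmt1 KO and 45.4 ± 2.74 in control (SD, n = 3 each). In the 6 members of the cluster with a transcript, 36.1% to 86.3% of the words occur in transcripts of other genes, so the split of reads among them is uncertain. The sequence searched differed from the exons counted, with 1144 words against 4020 bases for Gm14322 and 2921 words against 1311 bases for Gm14295.

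Of 9 pseudogene members, 8 could be searched for words shared with other transcripts, and 6 shared at least 50% of them, with a range of 1.46% to 100%. Gm12070 shared 94.8% of its 50-base words with Gapdh, the glycolytic enzyme gene. It had 120.4, 91.3 and 87.4 scaled read counts in Dnmt1 KO replicates 1, 2 and 3, against 143.4, 105.7 and 120.3 in control replicates 1, 2 and 3, a log2 fold change of -0.31. Gapdh averaged 2199 in Dnmt1 KO and 2660 in control, a log2 fold change of -0.27, and neither passed (limma adjusted p = 0.484 and 0.536). Gm6682 had 45.3% of its words in the tubulin gene Tuba1b, with log2 fold changes of -0.37 and -0.51. Gm1943 had 100% of its words in Wdr70, with -0.40 and -0.04, and Gm9833 had 81.7% in Myef2, with -0.40 and -0.23. The words of Gm1943 numbered only 125, against 1109 exon bases counted for it, so most of that row was not searched. The values of these pseudogenes may hold reads of the gene they resemble.

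Gm3002 (-0.53) and Gm17821 (0.28) also did not pass, and 97.4% of the words of Gm3002 and 1.46% of those of Gm17821 occur in other transcripts. Those words, 2011 and 1644, cover only part of the 5215 and 12530 exon bases counted for these 2 genes. Gm17066, matched to no RefSeq entry, shares 158 exon bases with Rbm26 on the same strand and averaged 43.2 ± 12.4 in Dnmt1 KO and 45.7 ± 13.8 in control (SD, n = 3 each). Exons overlapped those of another listed gene in 7 members, of which limma, edgeR and DESeq2 called 0, and 0 had an unadjusted p under 0.05.

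Control replicate 2 was the highest library for some members. Gm14492, listed as Prr33, whose span overlaps those of Lsp1 and of the troponin gene Tnnt3 on the opposite strand, had 31.5, 35.1 and 30.8 in Dnmt1 KO replicates 1, 2 and 3, against 21.1, 69.5 and 20.1 in control replicates 1, 2 and 3. Gm1078, or Sbk3, a kinase gene, had 20.1, 9.03 and 7.38 in Dnmt1 KO replicates 1, 2 and 3, against 7.02, 23.8 and 7.61 in control replicates 1, 2 and 3. In both genes the groups overlapped. Tnnt3 had 561, 445 and 198 in Dnmt1 KO replicates 1, 2 and 3, against 210, 983 and 113 in control replicates 1, 2 and 3, with the same library on top. The part of contractile genes in the values of Gm14492 and Gm1078 was not tested.

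Members just over the threshold were Gm17644, Gm9833 and Gm2115, with means of 5.63, 6.31 and 6.52, and rows just under it were Gm19589, Gm15708 and Gm14305, with 4.92, 4.72 and 4.63. Gm19589 had 5.73, 5.02 and 14.8 in Dnmt1 KO replicates 1, 2 and 3, against 1.00, 0.952 and 2.07 in control replicates 1, 2 and 3. Gm15708 averaged 4.67 in Dnmt1 KO and 4.76 in control, and Gm14305 averaged 3.72 in Dnmt1 KO and 5.54 in control.

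**Figure D5:**
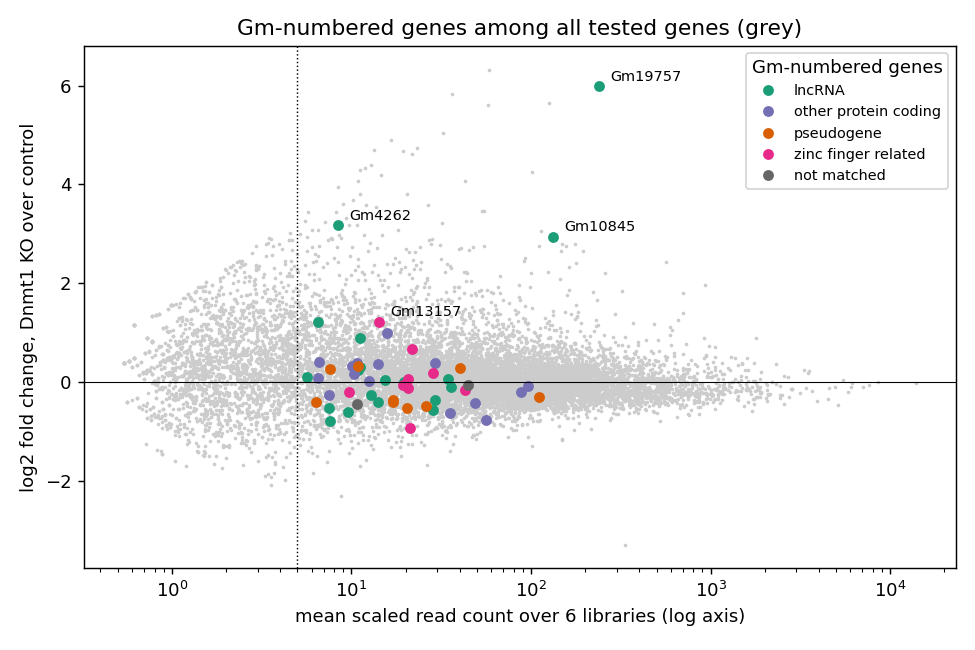
Log2 fold change, Dnmt1 KO over control, against the mean scaled read count (log axis) for the 12591 genes tested (grey) and the 54 Gm-numbered genes, coloured by kind, with a dotted line at the threshold of 5. Gm19757, Gm10845 and Gm4262 stand above the other Gm-numbered genes, which lie within the grey cloud around 0.

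The libraries were shallow, with 954786 to 1347051 reads in Dnmt1 KO and 1403242 to 2021725 in control, and 12484 to 13387 genes above 0. Dnmt1 had 74.6, 36.1 and 81.2 scaled read counts in Dnmt1 KO replicates 1, 2 and 3, against 614, 539 and 655 in control replicates 1, 2 and 3 (log2 fold change -3.29, limma adjusted p = 0.00121). The library with the lowest Dnmt1, Dnmt1 KO replicate 2, was the one with the highest Gm19757, Gm10845 and Gm4262. It was also the highest for other genes called higher, such as Adam8, Padi3 and Serpine2, but not for Casp12 or Psrc1. This order is thus not particular to the 3 lncRNAs, and a link to the level of Dnmt1 was not tested. Satellite cell markers were present, with Pax7 at 63.1 ± 4.32 in Dnmt1 KO and 114.6 ± 13.6 in control (SD, n = 3 each; limma adjusted p = 0.0441), the call among 7 tested. Contractile genes summed to 1591 to 4893 in Dnmt1 KO and 770.9 to 12580 in control, with control replicate 2 highest and 0 of 12 called by limma. Macrophage markers summed to 71.4 to 184.6 in Dnmt1 KO, highest in replicate 2, and 21.9 to 36.1 in control. Of 6 in the table, 2 could be tested and Laptm5 rose, while Ptprc, Tyrobp and C1qa were at 0 in all libraries. Fibro-adipogenic markers summed to 423 to 547 in Dnmt1 KO and 325 to 501 in control, with Col1a1 higher among 4 tested and Lum at 0. Endothelial markers summed to 7.02 to 11.5 in Dnmt1 KO and 2.86 to 14.0 in control. Of 18 tested genes of DNA and histone methylation and HUSH silencing, Dnmt1 fell, 0 rose, and the median log2 fold change was -0.28. The part of the macrophage and fibro-adipogenic markers in the values of Gm19757 and Gm10845 was not tested.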

How the data were processed

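Reads were aligned with TopHat to mm10 and counted per gene with featureCounts, per the submitters' processing notes. Versions, annotation, strand setting and scaling method were not given in the sources used here. Deposited by the authors was a signal per gene and sample: read counts multiplied by 1 factor per sample. Divided by the library's smallest nonzero value, 100% of values were whole (tolerance 0.001), which gave the reads per library. The deposited table also holds the authors' p-value and q-value per gene.

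The table held scaled values and not the raw counts first assumed, so limma 3.58.1 (R 4.3.3) was run on log2(value + 1) with an intensity trend and no covariates. A gene needed a value of 1 or more in 3 libraries. Benjamini-Hochberg adjustment ran over all 12591 genes tested, with a threshold of 0.05. A fold change on this scale understates that of low genes. The comparison was repeated with TMM factors, median-of-ratios factors or equal totals, with a mean filter or no filter, with 0.1 as pseudocount, with a replicate block, and with each library omitted. On whole reads it was repeated with edgeR 4.0.16 and DESeq2 1.42.0. The count tests used 4 libraries, Dnmt1 KO replicates 1 and 3 and control replicates 2 and 3. In Dnmt1 KO replicate 2 and control replicate 1 a read was worth nearly 1 unit (1.00333 and 1.00313). These 2 libraries were left out, although their values were also whole after division. The count tests therefore lack the library with the highest Gm19757 and Gm10845. limma on the same 4 libraries, and adding rows on several autosomes, were chosen after the data were examined. The fits were tested on simulated data.

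Members were matched by symbol or synonym and position to RefSeq (GRCm38.p6) and GENCODE M21 (GRCm38), the same build as mm10. Kinds were taken from RefSeq gene types, with genes set apart as zinc finger related where RefSeq gives a Zfp symbol or 50-base words occur in at least 5 Zfp genes. Such words also measured sequence shared with other transcripts. They were taken from GENCODE transcripts, which for some members are much shorter than the exons counted. Alignments used Biopython 1.88 with local scores of 2 for a match, -3 for a mismatch, -5 to open a gap and -2 to extend it. Members were named if they passed the test, had 1 of the 10 highest means, were among the 8 largest differences in each direction that did not pass, or lay at the threshold of the rule, together with a neighbour within 5 kb. Other genes named, such as Cntn3, Sirt5, Gm11974, Gm14005, Gm1078, Gm14492 and the pseudogenes beyond the rule, were chosen after their values were seen. The members and gene lists were chosen with earlier results of these data known. Not counted as members were 3 Gm-numbered rows on several chromosomes and 1 on chromosome X that reached the mean.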

Additional observations from a re-analysis of the deposited data

How the results depend on the processing

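Gm19757 passed the test in all 16 alternatives, with log2 fold changes of 5.37 to 6.37, and Gm10845 in 14 of 16, with 2.32 to 3.29. Over all genes the count of 222 became 127 with a pseudocount of 0.1, 435 with the replicate block, 6 by edgeR, 34 by DESeq2 and 11 by limma on the same 4 libraries, and 13 to 773 when a library was left out, lowest without Dnmt1 KO replicate 1 and highest without control replicate 2. Members higher numbered 1 by edgeR, 3 with no filter, and 1 to 3 when a library was left out: 1 without Dnmt1 KO replicate 1, and 3 without control replicate 2 or 3, where Gm4262 passed (limma adjusted p = 0.0266 and 0.0415). Gm4262 also passed with no filter (limma adjusted p = 0.0468), which makes 3 of the 15 alternatives that tested it. Its log2 fold change was positive in all 15. Its limma adjusted p was 0.271 without Dnmt1 KO replicate 2 and 0.680 on the same 4 libraries as the count tests, and its DESeq2 adjusted p was 0.9997. Members lower numbered 0 in every alternative, as did those lower among members with a mean of at least 10, with no exon overlap, or with a mean of at least 5 in each group. The median log2 fold change of members lay between -0.09 and 0.07. With the replicate number as a block, members higher still numbered 2. Same-numbered deviations correlated at -0.06, 0.22 and 0.31, and unlike-numbered ones at -0.36 to 0.19. These values do not settle whether the numbers pair samples. The labels do not say that they do, so the main fit used no pairing.

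Some members that did not pass changed sign when a library was left out. Their log2 fold changes then ranged from -0.22 to 0.11 for Gm15800, -0.40 to 0.086 for Gm608, -0.32 to 0.87 for Gm7120, -0.51 to 0.52 for Gm2115, -0.26 to 0.29 for Gm17644 and -0.33 to 0.13 for Gm17066. Gm5148 had 0.0031 by edgeR and 0.021 by limma on the same 4 libraries, against -0.64 in all 6. The cause of these changes was not tested.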
